A study of Mus musculus with 12 samples.

Results

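The complement system is represented here by 9 genes: C3, C4b, Cfb, C2, C1ra, C1s1, Serping1, Cd55 and Cd59a. They were found by symbol among the 52962 gene identifiers of the count table, and each had 1 identifier. Their transcripts were followed in β and non-β fractions of islets from NOD mice, which become diabetic through autoimmunity, at the ages of 4 and 8 weeks. They were chosen by function with earlier results of these samples in view, and the values in view included the age changes of Cfb and C3. Changes of the 9 genes with age are therefore descriptions, with a standard error (SE) and a 95% confidence interval and without a test. The comparisons between the cell fractions, and of the age changes between the fractions, were tested together with all other genes. They use the same libraries as the age changes, and the second kind is computed from those changes. Their p-values for the 9 genes are therefore not independent of the choice.

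There were 12 libraries in 4 groups of 3 replicates, namely 4-week β-cells, 8-week β-cells, 4-week non-β-cells and 8-week non-β-cells. All mice had the NOD genotype, were described as female in the study's methods, and received no treatment. Islets had been kept in culture overnight before the sort, which separated cells by their own fluorescence and left out CD45+ leukocytes. The study describes every replicate as a pool of mice, a detail absent from the labels, so the spread between replicates is that between pools. By the study's account, insulitis is further advanced at the older age.

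Levels are given as CPM, estimated counts relative to the library total after TMM scaling, and ± is the SD over the 3 libraries of a group. Library totals ran from 13755106 to 27040652 estimated counts. Sorted identity matched the labels: the summed CPM of 6 β-cell markers was 46100 to 112000 in β libraries and 2840 to 5810 in non-β libraries. The sum of 6 α-cell markers was 106000 to 136000 in non-β and 1520 to 9410 in β libraries. Leukocyte markers summed to 19.4 to 83.8 CPM in every library, and of those 16 genes 4 to 9 had no count in a given group. The 4-week libraries numbered 3 stood apart from the other 4-week libraries on the third principal component (62.9 against 5.9 and 6.7 in β-cells, and 32.7 against -17.5 and -56.4 in non-β-cells). Results that rest on them are also given without them.

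Complement acts as a chain of proteases. In the classical pathway C1q binds a target, the proteases C1r and C1s are activated, and they cut C4 and C2 to form a C3 convertase. In the alternative pathway C3b pairs with factor B to form a further C3 convertase, which amplifies the chain. Regulators hold it in check: C1 inhibitor, the product of Serping1, blocks C1r and C1s, while CD55 and CD59 protect host membranes from the convertases and from the membrane attack complex. The liver makes most circulating complement, C3, C4 and factor B are known as acute-phase and cytokine-inducible proteins, and islet cells are known to transcribe C3. Of the 9 genes, C4b, Cfb and C2 lie close together in the class III region of the major histocompatibility complex.

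Promoter sequence is shown for C3 and C1s1, which were both higher at 8 weeks in both fractions. RefSeq entries existed for 5 of the 9 genes (C3, C1ra, C1s1, Cd55 and Cd59a), in build GRCm38.p6. Each run holds the 250 bases before the start, 5′ to 3′ on the gene's strand, and capitals mark matches to TTNNGNAA, a loose form of the C/EBP motif searched on both strands. C/EBP factors are known regulators of acute-phase genes. The C3 run is chr17:57228137-57228386, minus strand, and the C1s1 run is chr6:124542360-124542609, minus strand.

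C3: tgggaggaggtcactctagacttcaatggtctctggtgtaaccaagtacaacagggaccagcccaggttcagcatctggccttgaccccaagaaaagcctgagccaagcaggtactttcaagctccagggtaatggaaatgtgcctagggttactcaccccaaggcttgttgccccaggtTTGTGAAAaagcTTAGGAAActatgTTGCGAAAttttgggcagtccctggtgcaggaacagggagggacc
C1s1: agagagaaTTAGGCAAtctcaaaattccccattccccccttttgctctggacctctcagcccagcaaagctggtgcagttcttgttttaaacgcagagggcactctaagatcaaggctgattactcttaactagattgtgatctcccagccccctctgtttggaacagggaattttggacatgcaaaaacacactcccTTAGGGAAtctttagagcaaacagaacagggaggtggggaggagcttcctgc

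The C3 promoter held 3 such matches, beginning 70, 58 and 45 bases before the start. Of 32851 promoters of the same length, 36.8% held at least 1 and 2.61% held 3 or more. C1s1 had 2 matches, at 242 and 52 bases, and C1ra also had 2, at 72 and 29 bases. The C1ra sequence is not printed because its RefSeq entry begins inside the gene model whose coordinates are given with its levels, so both of its matches lie within that gene. None of these 3 promoters held the kappa-B motif (in 7.25% of all promoters), the GAS motif TTCNNNGAA (7.02%) or the ISRE motif (2.98%), all on both strands. Cd59a held 1 ISRE match, 187 bases before its start. These are letter matches in a short window and do not show binding.

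In β-cells, 7 of the 9 genes were higher at 8 weeks with no overlap between the libraries of the 2 ages, beside 20.7% of all 15598 tested genes. The exceptions were C2 and Cd55, whose ages overlapped. In non-β-cells, 8 of the 9 genes were higher without overlap (19.0% of all genes), and Cd55 was lower without overlap (13.8%). Since age changes were in view when the genes were chosen, nothing is read from these counts. The median log2 age change of the 9 genes was 1.12 for β-cells and 2.41 for non-β-cells, and that of all genes was 0.02 and 0.01.

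**Figure D1:**
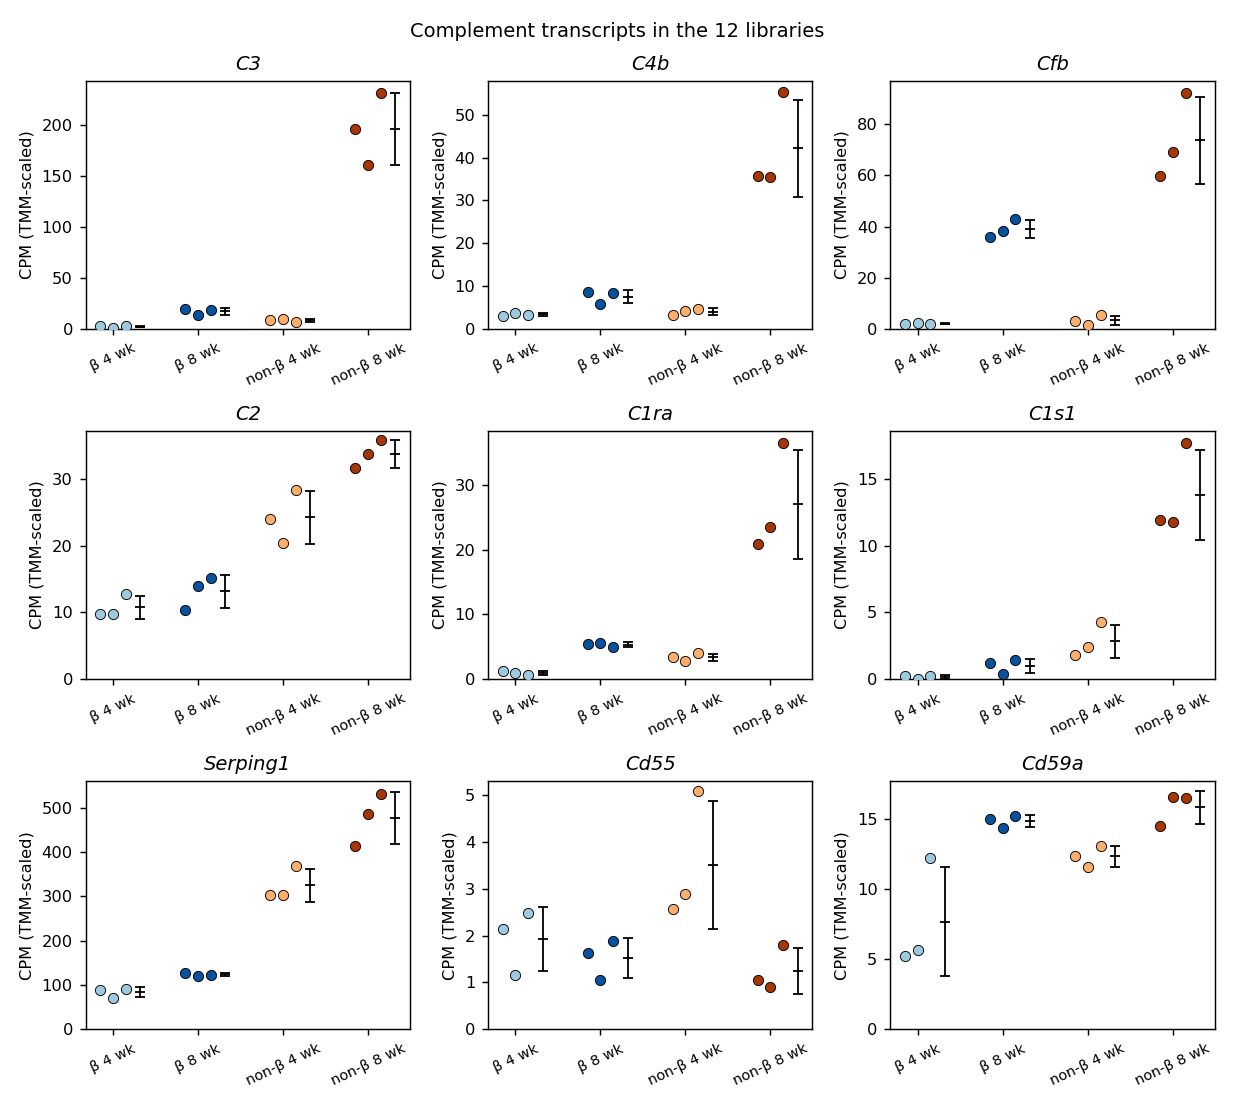
CPM (TMM-scaled, linear axes from 0) of the 9 complement genes in each of the 12 libraries, by cell fraction and age. Points are single libraries and the bar beside them is the mean ± SD of 3. C3 at 161 to 232 CPM in 8-week non-β-cells and Cfb at 35.8 to 42.9 CPM in 8-week β-cells stand far above their 4-week libraries, whereas Cd55 stays at 5.08 CPM or less.

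The early proteases of the classical pathway had low levels at 4 weeks and higher levels at 8 weeks. C1ra (ENSMUSG00000055172, chromosome 6, 124512405 to 124523443, plus strand, GRCm38) encodes C1r. Its CPM in β-cells was 1.27, 0.872 and 0.55 at 4 weeks and 5.37, 5.62 and 4.93 at 8 weeks. The 8-week libraries were thus all above the 4-week ones, by 2.62 on the log2 scale (SE 0.58, 95% interval 1.37 to 3.88). In non-β-cells its CPM was 3.33, 2.79 and 3.94 at 4 weeks and 20.9, 23.5 and 36.5 at 8 weeks. The log2 change there was 2.97 (SE 0.30, 2.31 to 3.63), again without overlap.

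C1s1 (ENSMUSG00000038521, chromosome 6, 124530345 to 124542359, minus strand) encodes C1s, the protease that cuts C4 and C2. In β-cells it was near the limit of detection, at 5, 0 and 5 estimated counts at 4 weeks and 26, 10 and 35 at 8 weeks. These are 0.254, 0 and 0.229 CPM against 1.20, 0.377 and 1.40 CPM. The log2 change was 3.05 with a wide interval (SE 1.36, 0.10 to 6.00), and 1.67 without replicate 2 at 4 weeks, the library with no count. Non-β-cells had 1.80, 2.40 and 4.24 CPM at 4 weeks and 11.9, 11.8 and 17.7 at 8 weeks. Every 8-week library lay above every 4-week one, with a log2 change of 2.41 (SE 0.37, 1.61 to 3.21).

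Among the central components, C3 reached the highest level. C3 (ENSMUSG00000024164, chromosome 17, 57203970 to 57228136, minus strand) encodes the protein on which all pathways converge. β-cells held 2.34, 1.31 and 2.94 CPM at 4 weeks and 19.1, 13.4 and 18.9 at 8 weeks. That is a log2 difference of 3.04 (SE 0.41, 2.15 to 3.93), or 8.23-fold. In non-β-cells the CPM was 8.64, 10.0 and 6.61 at 4 weeks and 196, 161 and 232 at 8 weeks. The non-β difference was 4.54 (SE 0.23, 4.05 to 5.03), or 23.25-fold, and the lowest 8-week library was far above the highest 4-week one.

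C4b (ENSMUSG00000073418, chromosome 17, 34728380 to 34743882, minus strand) encodes C4, the first substrate of C1s. Its CPM in β-cells was 3.05, 3.77 and 3.26 at 4 weeks and 8.60, 5.77 and 8.26 at 8 weeks, or 1.12 higher on the log2 scale (SE 0.34, 0.38 to 1.86). In non-β-cells it went from 3.14, 4.26 and 4.68 to 35.8, 35.6 and 55.3 CPM, a log2 change of 3.41 (SE 0.29, 2.78 to 4.03). The ages did not overlap in either fraction. C4b shares 48.3% of its 31-base transcript words with its neighbour copy C4a, so counts could be divided between them. With both copies summed, the non-β change was 2.37 and the β change 1.19.

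C2 (ENSMUSG00000024371, chromosome 17, 34862604 to 34898265, minus strand), which supplies the protease part of the classical C3 convertase, differed little with age. β-cells had 9.77, 9.79 and 12.7 CPM at 4 weeks and 10.4, 13.9 and 15.2 at 8 weeks, and the ages overlapped (log2 change 0.30, SE 0.20, -0.12 to 0.72). Non-β-cells had 24.1, 20.4 and 28.4 CPM and then 31.7, 33.8 and 35.9, without overlap (0.48, SE 0.15, 0.15 to 0.82). Its neighbour of related function, Cfb, stood apart from it in age change.

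Cfb, the alternative pathway's counterpart of C2, had the largest estimated age change of the 9 genes in β-cells. In non-β-cells its estimate lay next to that of C3. Cfb (ENSMUSG00000090231, chromosome 17, 34856374 to 34862518, minus strand) encodes factor B. β-cells had 1.93, 2.38 and 1.88 CPM at 4 weeks and 35.8, 38.3 and 42.9 at 8 weeks. This is a log2 change of 4.22 (SE 0.42, 3.31 to 5.12), or 18.59-fold. Non-β-cells had 3.25, 1.61 and 5.23 CPM at 4 weeks and 59.7, 69.0 and 92.4 at 8 weeks, a change of 4.57 (SE 0.35, 3.81 to 5.32), or 23.7-fold. A read-through gene model, Gm20547, overlaps Cfb and C2 and holds 75.5% of Cfb's and 40.2% of C2's 31-base words. It received 0 to 62 estimated counts per library with no order by group. With its counts added to Cfb, the changes were 3.92 and 4.48.

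Serping1 was the most abundant of the 9 genes in every group. Serping1 (ENSMUSG00000023224, chromosome 2, 84765387 to 84775444, minus strand) had 89.1, 70.9 and 90.5 CPM in β-cells at 4 weeks and 126, 121 and 123 at 8 weeks. In non-β-cells it had 303, 302 and 368 CPM and then 413, 486 and 531. The 8-week libraries were higher without overlap in both fractions, by 0.58 (SE 0.13, 0.30 to 0.85) and 0.55 (SE 0.13, 0.28 to 0.82) on the log2 scale. These estimates are smaller than those of C1ra and C1s1, whose products it blocks.

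Of the membrane regulators, Cd59a was higher at 8 weeks in both fractions and Cd55 in neither. Cd55 (ENSMUSG00000026399, chromosome 1, 130439027 to 130462744, minus strand) encodes decay-accelerating factor, which dissociates C3 convertases on host cells. Its CPM in β-cells was 2.14, 1.15 and 2.48 at 4 weeks and 1.62, 1.06 and 1.89 at 8 weeks, with overlapping ages (log2 change -0.28, SE 0.47, -1.29 to 0.74). In non-β-cells it was 2.56, 2.89 and 5.08 at 4 weeks and 1.04, 0.896 and 1.80 at 8 weeks. All 8-week non-β libraries were lower (-1.41, SE 0.49, -2.47 to -0.35), on 12 to 35 estimated counts each.

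Cd59a (ENSMUSG00000032679, chromosome 2, 104095801 to 104115354, plus strand) encodes an inhibitor of the membrane attack complex. β-cells had 5.24, 5.63 and 12.2 CPM at 4 weeks and 15, 14.4 and 15.2 at 8 weeks, or 1.06 higher on the log2 scale (SE 0.23, 0.56 to 1.57). The 4-week library with 12.2 CPM was one of those numbered 3, and without it the change was 1.44. Non-β-cells had 12.4, 11.6 and 13.1 CPM at 4 weeks and 14.5, 16.6 and 16.5 at 8 weeks (0.35, SE 0.21, -0.11 to 0.80). At 8 weeks the levels of both fractions were close to each other.

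**Figure D2:**
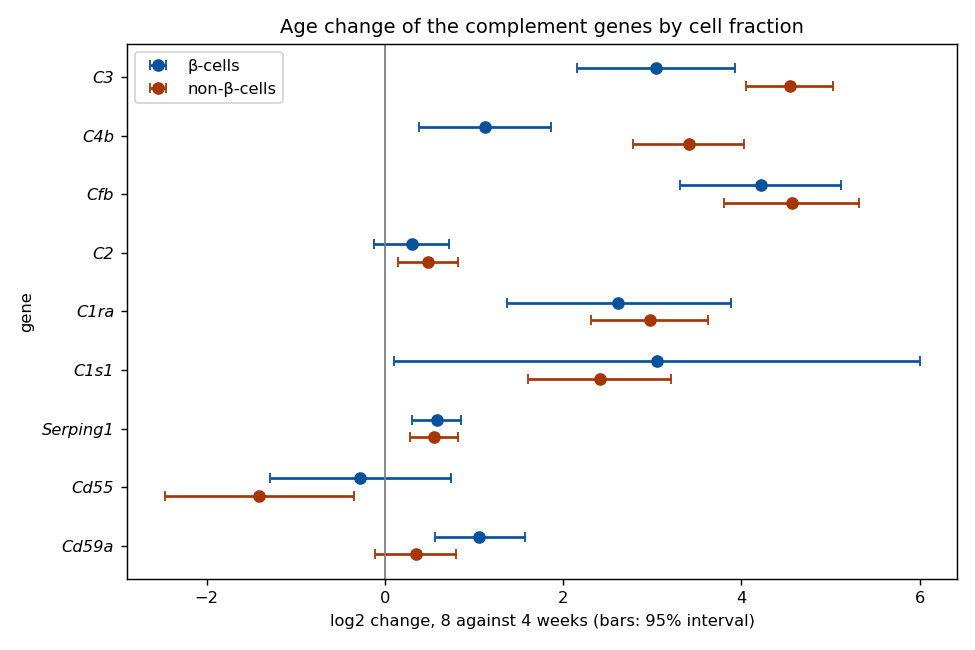
Log2 change of each complement gene from 4 to 8 weeks, in β-cells (blue) and non-β-cells (brown). Points are limma-voom estimates from 3 libraries per group and bars are 95% intervals. Cfb (4.22 and 4.57) lies farthest to the right in each fraction. Next come C1s1 (3.05) and C3 (3.04) in β-cells, and C3 (4.54) in non-β-cells. The intervals of C4b in the 2 fractions (0.38 to 1.86 and 2.78 to 4.03) do not meet.

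To compare levels between genes, CPM was divided by the length of all exons in kilobases. In 8-week non-β-cells the order was Serping1 (205 ± 25.5 CPM per kb), C3 (38.2 ± 6.87), Cfb (26.1 ± 5.96), C1ra (9.05 ± 2.81), Cd59a (8.75 ± 0.664), C2 (8.73 ± 0.546), C4b (7.42 ± 1.99), C1s1 (4.41 ± 1.08) and Cd55 (0.256 ± 0.0999). The libraries of C3 and Cfb overlapped, as did those of each neighbouring pair from C1ra to C4b, whereas every C4b library lay above every C1s1 library. In 4-week β-cells Serping1 (35.9 ± 4.71 CPM per kb) was also at the top, but Cd59a (4.25 ± 2.16) and C2 (2.77 ± 0.429) came next. The remaining 6 genes were then between 0.0515 ± 0.0448 (C1s1) and 0.731 ± 0.0967 (Cfb). By 8 weeks Cfb (13.8 ± 1.27) had the second-highest level in β-cells and C3 (3.33 ± 0.625) was beside C2 (3.41 ± 0.642).

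Next, β-cells were compared with non-β-cells. At 4 weeks 6 of the 9 genes were lower in β-cells by adjusted p, beside 23.7% of all tested genes, and none was higher. The same 6-gene count held for libraries that did not overlap (26.7% of all genes). Serping1 was lower by 1.96 on the log2 scale (log2 difference -1.96, SE 0.13, adjusted p 7.92e-08) and C2 by 1.18 (-1.18, SE 0.18, adjusted p 0.00019). C3 (-2.03, SE 0.43, adjusted p 0.00198) and C1s1 (-4.63, SE 1.29, adjusted p 0.01) were also lower in β-cells. So were C1ra (-1.95, SE 0.61, adjusted p 0.0179) and Cd59a (-0.79, SE 0.24, adjusted p 0.0165), whose libraries overlapped in the case of Cd59a. Both of these last calls depended on single libraries. C1ra had an adjusted p of 0.055 without β-cell replicate 2, 0.0734 without β-cell replicate 3 and 0.111 without both 4-week libraries numbered 3. Cd59a had 0.0791 without β-cell replicate 1, 0.0963 without β-cell replicate 2 and 0.0714 with only the groups compared.

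C4b, Cfb and Cd55 did not pass at 4 weeks. The difference for C4b was -0.20 (95% interval -1.04 to 0.63, adjusted p 0.688) and for Cfb -0.54 (-1.66 to 0.57, adjusted p 0.406). Cd55 had -0.88 (-1.74 to -0.02, adjusted p 0.0848) with no overlap between the fractions.

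At 8 weeks 7 of the 9 genes were lower in β-cells, beside 25.6% of all tested genes, and the same number did not overlap (32.4% of all genes). All alternatives run gave 7. C3 had the smallest adjusted p of the 9, 17.1 ± 3.21 CPM in β-cells against 196 ± 35.3 in non-β-cells (log2 difference -3.53, SE 0.18, adjusted p 8.64e-09). C1s1 differed by -3.99 (SE 0.57, adjusted p 8.43e-05), C4b by -2.49 (SE 0.22, adjusted p 1.37e-06) and C1ra by -2.30 (SE 0.25, adjusted p 6.96e-06). Serping1 differed by -1.94 (SE 0.13, adjusted p 6.68e-08) and C2 by -1.36 (SE 0.17, adjusted p 2.4e-05). Cfb showed the smallest difference that passed, with 39.0 ± 3.57 CPM in β-cells against 73.7 ± 16.8 in non-β-cells (-0.90, SE 0.17, adjusted p 0.000835). Cd59a (-0.08, -0.52 to 0.36, adjusted p 0.773) and Cd55 (0.26, -0.93 to 1.44, adjusted p 0.726) did not pass. The median difference of the 9 genes was -1.18 at 4 weeks and -1.94 at 8 weeks, and that of all genes was 0.00 and 0.01.

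Whether the age change itself differed between the fractions was tested as an interaction, where a negative value means a change more positive in the non-β fraction. It is computed from the age changes, which were in part in view when the 9 genes were chosen. C4b was the 1 member of 9 that passed, beside 3.33% of all tested genes in that direction. Its difference of changes was -2.29 (SE 0.45, adjusted p 0.01), with the larger change in non-β-cells. With C4a and C4b summed it was -1.18 (adjusted p 0.0237). For C3 it was -1.5 (95% interval -2.52 to -0.48, adjusted p 0.0932), which passed in edgeR (-1.57, adjusted p 0.0223), in DESeq2 (-1.59, adjusted p 0.000335) and with replicate number as a block (-1.56, adjusted p 0.00956). Cd59a had 0.72 (0.03 to 1.40, adjusted p 0.238) and passed without β-cell replicate 3 at 4 weeks (1.10, adjusted p 0.0117). For Cfb the difference of changes was -0.35 (-1.53 to 0.83, adjusted p 0.792), for Serping1 0.02 (-0.37 to 0.41, adjusted p 0.966) and for C2 -0.18 (-0.72 to 0.35, adjusted p 0.759). C1ra (-0.35, -1.76 to 1.07), C1s1 (0.64, -2.42 to 3.69) and Cd55 (1.13, -0.33 to 2.60) had wide intervals and adjusted p-values of 0.838, 0.865 and 0.406.

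Markers of cells other than endocrine cells moved with age in the non-β fraction. The summed CPM of 8 endothelial markers was 49.4 to 92.1 at 4 weeks and 382 to 1040 at 8 weeks, and all 8 passed as higher. For 9 mesenchymal markers the sums were 107 to 308 and 697 to 1090, and all 9 passed as higher. Of 6 duct markers 5 passed as higher (581 to 777 against 1950 to 2170 CPM). Acinar markers went from 1.76 to 46.4 CPM to 147 to 661, with 2 of 7 passing as higher. Leukocyte markers went from 19.4 to 31.1 CPM to 59.7 to 74.2, with 2 of the 3 tested passing as higher. The part of these cells in the non-β changes of C3, C4b, Cfb, C1ra and C1s1 was not tested. In bulk samples such as these, fewer cells of a type and less RNA per cell cannot be told apart.

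In β-cells the endothelial and mesenchymal sums were below those of non-β-cells at both ages. The acinar and leukocyte sums and the 4-week duct sums were not. Endothelial markers gave 6.82 to 16.0 CPM at 4 weeks and 13.1 to 16.4 at 8 weeks, with 0 of 8 passing, and mesenchymal markers 4.36 to 15.7 and 26.6 to 54.7 CPM, with 1 of 9 passing. The sums of duct markers (833 to 1170 against 1650 to 1780 CPM, 2 of 6 passing) and acinar markers (84.5 to 175 against 391 to 849 CPM, 5 of 7) were higher at 8 weeks. Krt7 and Spp1 made up most of the duct sum. Mean Spp1 went from 99.2 to 943 CPM, whereas Krt7 went from 857 to 740 and Krt19 from 9.63 to 8.27. The means of Muc1, Sox9 and Cftr rose but stayed at 8.41 CPM or less. Krt7 was lower in non-β-cells, at 260 and 343 CPM, so the duct sum in β-cells does not measure duct cells alone. Leukocyte markers in β-cells summed to 53.4 to 55.6 CPM at 4 weeks and 78.1 to 83.8 at 8 weeks, with 2 of the 3 tested passing as higher. Most of these sums was Cd68, with means of 48.8 and 69.6 CPM. Ptprc, which encodes CD45, was at 0 in 8-week β libraries. Of 6 β-cell markers 4 passed as higher at 8 weeks (46100 to 81100 against 107000 to 112000 CPM), and of 6 α-cell markers 5 passed as lower (5630 to 9410 against 1520 to 2570 CPM). The part of any of these cells in the β-cell changes was not tested.

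**Figure D3:**
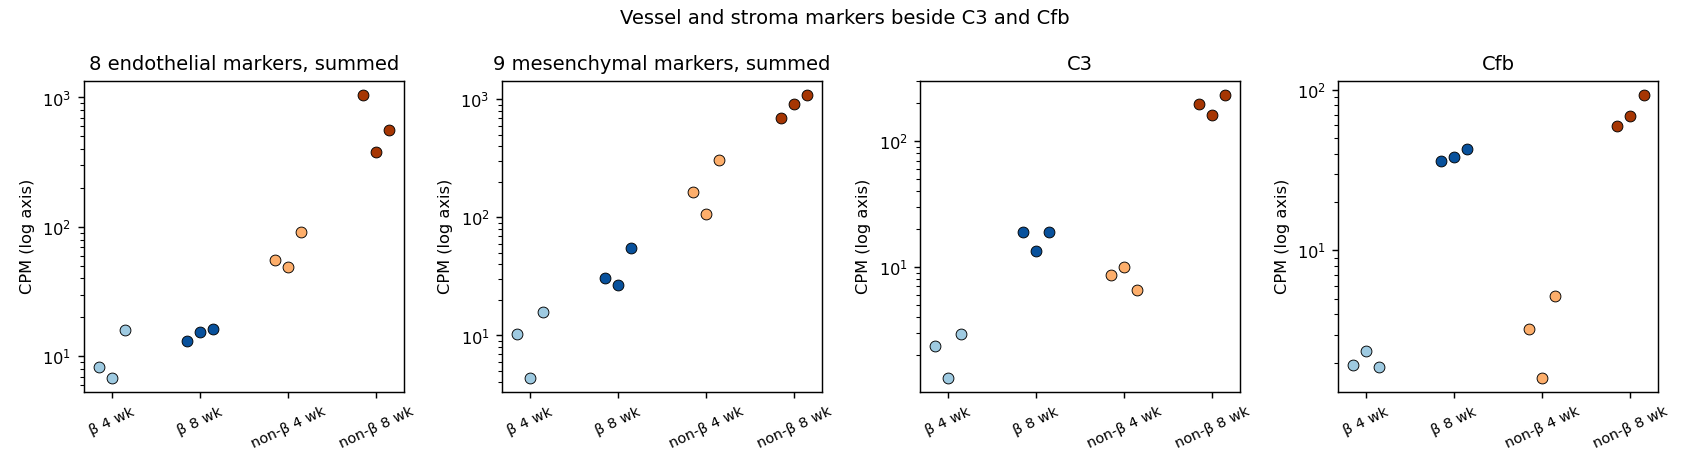
Summed CPM of 8 endothelial and 9 mesenchymal markers beside C3 and Cfb, in each of the 12 libraries on log axes. Each point is 1 library. Both marker sums in 8-week β-cells stay below all non-β libraries. Cfb in 8-week β-cells (35.8 to 42.9 CPM) lies above every 4-week library and below 8-week non-β-cells (59.7 to 92.4 CPM).

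The rest of the pathway was followed with 44 further complement genes, of which 21 were abundant enough to test. These genes too were listed with earlier results of these data known. Their p-values are therefore not independent of that choice. In β-cells 2 of the 21 rose with age (8.59% of all genes) and 1 fell (9.35%). In non-β-cells 8 rose (11.6% of all genes) and 1 fell (4.80%). β-cells had 3 genes higher and 10 lower than non-β-cells at 4 weeks (24.9% and 23.7% of all genes), and 3 higher and 12 lower at 8 weeks (23.6% and 25.6%). Without the 4-week libraries numbered 3, 1 of the 21 rose and 1 fell in β-cells, and 7 rose and 1 fell in non-β-cells.

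Of the recognition molecules and early proteases, 7 of 15 were tested. C1rb, the copy of C1ra with which C1ra shares 56.9% of its 31-base words, had no count in 4-week β-cells and 11, 29 and 17 counts at 8 weeks. This is at least 17.3-fold higher, taking 3 counts over the group as the floor (adjusted p 0.0229). That call was lost in 6 of 22 alternatives, among them each of the 3 that left out a 4-week β library. In non-β-cells C1rb rose by 1.5 (adjusted p 0.046), a call lost in 14 of 22 alternatives. Masp1, a protease of the lectin pathway, went the other way: it fell by 2.46 in β-cells (log2 change -2.46, adjusted p 0.0348) and by 1.81 in non-β-cells (-1.81, adjusted p 0.000963). Its CPM in non-β-cells was 11.2, 9.00 and 7.44 at 4 weeks and 2.47, 4.41 and 1.95 at 8 weeks. The β-cell call for Masp1 was lost in 6 of 22 alternatives. Masp2 was lower in the β fraction at 4 weeks (-1.62, adjusted p 0.00289).

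Fcna, which encodes the lectin-pathway recognition molecule ficolin-A, was found in β-cells and not in non-β-cells. It had 51, 59 and 53 counts in 4-week β-cells, 37, 30 and 27 in 8-week β-cells, and 0 in all 6 non-β libraries. The fold was at least 54.5 at 4 weeks (adjusted p 3.86e-05) and at least 24.0 at 8 weeks (adjusted p 0.000194). An antisense gene, Fcnaos, overlaps it on the opposite strand. C1qa, a chain of C1q, was lower in β-cells at 4 weeks (-1.78, adjusted p 8.49e-05) and 8 weeks (-2.65, adjusted p 7.84e-06), and its age changes did not pass.

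In the central and alternative groups, C4a rose in β-cells by 1.22 (adjusted p 0.0141), from 2.98 to 3.33 CPM at 4 weeks to 6.18 to 8.88 at 8 weeks. C4b shares 48.3% of its 31-base words with C4a, so the counts of C4a could in part be those of C4b. In non-β-cells the change of C4a was 0.44 (-0.13 to 1.02, adjusted p 0.307). At 4 weeks it was lower in β-cells (-0.83, adjusted p 0.0451), a call lost in 10 of 22 alternatives. Cfp, which encodes properdin, the stabiliser of the alternative convertase, was lower in β-cells at 4 weeks (-2.73, adjusted p 0.00183) and at 8 weeks (-1.53, adjusted p 0.0123). The call at 8 weeks was lost without β-cell replicate 2 (adjusted p 0.0595). Of 7 terminal genes, 2 were tested. C8b was higher in non-β-cells at both ages and rose there by 0.88 (adjusted p 0.00452). Hc, which encodes C5, had no count in any library, and neither had C9. NOD mice are known to lack C5, and a link between that and the Hc counts was not tested.

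Among the soluble regulators, Clu, which encodes clusterin, rose in non-β-cells by 1.73 (SE 0.16, adjusted p 8.53e-06), from 378 to 571 CPM to 1420 to 1640. In β-cells its change was -0.17 (adjusted p 0.491), at 429 to 560 and then 375 to 484 CPM. The age changes of Clu differed between the fractions by -1.90 (SE 0.22, adjusted p 0.000259). Cfi, factor I, which cuts C3b and C4b, rose in non-β-cells by 1.59 (adjusted p 0.00486), a call lost in edgeR, and its age changes did not pass as different between the fractions (adjusted p 0.745). Vtn, vitronectin, rose there by 3.91 (adjusted p 0.0129) from a mean of 0.19 CPM, a call lost with only the groups compared (adjusted p 0.0727). In β-cells Vtn had a change of 2.84 (adjusted p 0.163) without overlap, and the changes did not pass as different (adjusted p 0.789). Cpn1, a chain of carboxypeptidase N, was lower in the β fraction by 1.30 at 4 weeks (-1.30, adjusted p 2.13e-06) and by 0.80 at 8 weeks (-0.80, adjusted p 0.000125).

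Cr1l, which encodes Crry, the main convertase regulator on mouse cells, was the one membrane regulator higher in β-cells. Its mean CPM was 116 in β-cells against 82.4 in non-β-cells at 4 weeks (0.50, adjusted p 0.00479), and 102 and 76.7 at 8 weeks (0.41, adjusted p 0.0149). With age it did not pass in either fraction (adjusted p 0.338 and 0.69). The 8-week call was lost without non-β replicate 1 (adjusted p 0.0605). Csmd1 rose in non-β-cells by 4.40 (adjusted p 0.00752) from a mean of 0.354 CPM, a call lost in edgeR. Among receptors, C1qbp, a C1q-binding protein that is mainly mitochondrial, was higher in β-cells by 1.34 at 4 weeks (adjusted p 0.000139) and 1.14 at 8 weeks (adjusted p 0.000617). Cd93, also an endothelial gene, rose in non-β-cells by 3.29 (adjusted p 9.55e-05), beside the endothelial sums given above. C8g, C4bp, Cd59b and Cd46 were tested and passed in no comparison.

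**Figure D4:**
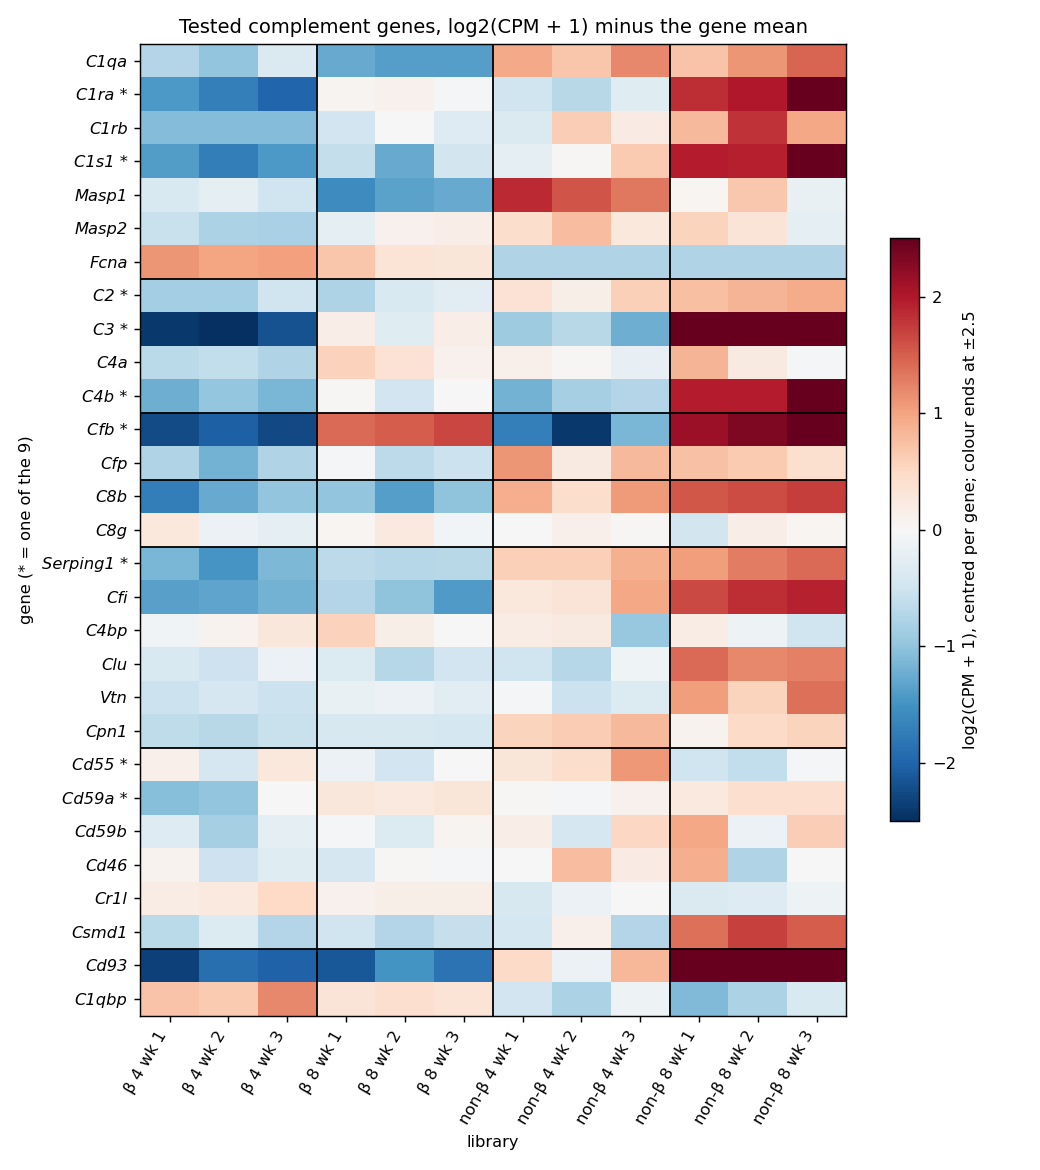
Log2(CPM + 1) minus the gene's mean over the 12 libraries, for 29 of the 30 tested complement genes (rows, in the order of their roles; asterisks mark the 9) and the 12 libraries (columns). Red is above and blue below the mean, and colours end at ±2.5. C3, Cfb, C4b, C1ra and C1s1 are darkest red in 8-week non-β-cells, where C3 reached 161 to 232 CPM, and of these Cfb is clearly red in 8-week β-cells too.

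The other 23 genes were too low to test. They were C1qb, C1qc, C1s2, Mbl1, Mbl2, Fcnb, Colec10 and Colec11 among recognition molecules and early proteases, and Cfd of the alternative pathway. The terminal genes were Hc, C6, C7, C8a and C9, and the regulators Cpn2 and Cd55b. The receptors were C3ar1, C5ar1, C5ar2, Cr2, Itgam, Itgax and Vsig4, several of which mark myeloid cells, the kind the sort left out. The receptors for the cleavage products C3a and C5a (C3ar1, C5ar1 and C5ar2) had 0 to 6 estimated counts per library.

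Genes outside the complement lists with the most similar pattern were sought for C3, Cfb and C4b. The measure was the root-mean-square (RMS) difference of log2 CPM over the 12 libraries, each gene centred on its mean, among 10160 genes with a mean log2 CPM of at least 3. Nearest to C3 were Cxcl1 (0.50), a neutrophil chemokine, Inhba (0.75), an activin subunit, and Tgm2 (0.75), a transglutaminase. Cxcl1 had 2.45 ± 0.492 and 12.9 ± 2.79 CPM in β-cells at 4 and 8 weeks and 7.32 ± 1.11 and 119 ± 12.2 in non-β-cells. Nearest to Cfb were Lcn2 (0.65), an acute-phase lipocalin, Ier3 (0.75), an immediate early gene, and Serpina3i (0.85), a serine protease inhibitor. Lcn2 went from 4.94 ± 2.59 to 98.8 ± 1.95 CPM in β-cells and from 3.51 ± 1.51 to 150 ± 22.4 in non-β-cells. Nearest to C4b were Icam1 (0.37), a leukocyte adhesion molecule, Nfkbia (0.41), an inhibitor of NF-κB, and Cxcl10 (0.42), an interferon-induced chemokine. The closest of the other 8 complement genes was C1ra for all 3, at 0.82, 1.11 and 0.70. These distances are descriptions over 12 libraries that share the 4 groups.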

How the data were processed

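RNA from sorted islet cells was sequenced from low-input total RNA libraries that keep the strand. The authors used fastp to trim the reads, kallisto to assign them to Ensembl 98 transcripts (GRCm38), and tximport to sum them to genes. Software versions are not given in the sources used here. The authors deposited estimated counts per gene, unscaled and unfiltered, with 14.0% to 19.3% of values not whole, which were rounded. Symbols, for 51916 of 52962 identifiers, and coordinates came from GENCODE M21.

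Following the study's methods, 15598 genes with a CPM above 1 in at least 3 libraries were kept, scaled by TMM (edgeR 4.0.16) and compared by limma-voom (version 3.58.1 of limma, in R 4.3.3) in 1 model of 4 group means. The Benjamini-Hochberg adjustment covered the 15598 genes, with two-sided p-values and 0.05 as the threshold. Log2 CPM used a prior count of 2. A 31-base word was shared when it occurred in transcripts of both genes. Alternatives were DESeq2 1.42.0 and its size factors, the quasi-likelihood test of edgeR, total-count scaling, no filter, at least 10 counts in 6 libraries, quality weights, only the groups compared, a replicate block, paralog counts summed and each library left out. Omission of both 4-week libraries numbered 3, and addition of Gm20547 counts, were chosen after seeing the data. The 9 members and the gene lists were chosen with earlier results of these data known. Named are the 9 genes, other listed complement genes that passed in any comparison or were too low to test (1 such gene is counted but not reported here), those tested without a call, and the 3 nearest genes of C3, Cfb and C4b. Replicates of a group differed by more than counting noise (chi-square per degree of freedom 8.05 to 97.8). Nothing in the labels says how replicates were separated, so p-values measure the spread between these samples.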

Additional observations from a re-analysis of the deposited data

Results flagged for a closer look

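For 2 complement genes the age change differed between the fractions by the test of that difference. C4b had a log2 age change of 1.12 in β-cells against 3.41 in non-β-cells, a difference of -2.29 (SE 0.45, adjusted p 0.01, limma-voom), and its non-β libraries were all higher at 8 weeks, as were its β libraries. It passed under each alternative run, with values from -2.46 to -1.18 and adjusted p-values of 1.55e-07 to 0.0381. The value closest to 0 came from adding the counts of its copy C4a.

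Clu had a log2 age change of -0.17 in β-cells against 1.73 in non-β-cells, a difference of -1.90 (SE 0.22, adjusted p 0.000259). It passed in all 21 alternatives, from -2.07 to -1.76. Its 8-week non-β libraries (1420 to 1640 CPM) were the same libraries in which the summed endothelial markers (382 to 1040 CPM) and mesenchymal markers (697 to 1090 CPM) were high. The part of those cells in either difference was not tested.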

How the results depend on the processing

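No result of the 9 genes reversed its direction past the threshold. Of 410 alternative values for their age changes, 404 differed from the main value by less than the replicate spread. Of 606 for their tested comparisons, 594 kept the call, with a change of sign only where neither fit passed. With sample quality weights the genes passing with age in β-cells went from 2799 to 5382 and those passing in the interaction from 800 to 2384. Interaction counts were 1562 with DESeq2 and 1455 without both 4-week libraries numbered 3. The complement genes passing in the interaction numbered 2, and 8 with quality weights, 5 with edgeR and 5 with DESeq2. With 1 library left out, these counts ranged from 1684 to 3114 (all genes, age in β-cells), from 450 to 984 (all genes, interaction) and from 4 to 9 (complement genes, age in β-cells), the lowest of the last without β-cell replicate 2 at 4 weeks. The log2 age change in β-cells was 2.64 for C3 without β-cell replicate 2 at 4 weeks, and 1.41 for Cd59a with quality weights. The Cd59a interaction passed with quality weights (1.00, adjusted p 0.00379) and without both libraries numbered 3 (1.05, adjusted p 0.0143). Total counts as the only scaling moved the split of age calls in β-cells from 1340 higher and 1459 lower to 1177 and 1782, and with no filter the median log2 change of all genes was 0.21 with age in non-β-cells and -0.23 between fractions at 8 weeks, against 0.01 for both with it.

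Same-numbered samples did not deviate together in every pair: correlations across genes were -0.006 to 0.034 and -0.005 to 0.124 for age in β and non-β-cells, and 0.08 to 0.306 and 0.008 to 0.049 for the fractions at 4 and 8 weeks. In those 4 pairings 3, 4, 4 and 5 of 6 samples correlated best with their own number. With the replicate block 2042 genes and 6 complement genes passed in the interaction, C3 (-1.56) among them.

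Low counts limit C1s1, Cd55 and C1rb, and shared sequence limits C4b, C4a, C1ra, C1rb, C1s1, Cfb and C2.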

Other observations

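C1qa was measured without its partner chains. C1q is built from 3 chains, and C1qa had 446 to 686 estimated counts in 4-week and 394 to 731 in 8-week non-β libraries. C1qb and C1qc, which lie beside it in the genome and are known from macrophages, had 0 to 2 estimated counts in every library. In β-cells C1qa had 106 to 217 counts.

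Among the non-β libraries at 8 weeks, replicate 1 had the highest endothelial marker sum (1040 CPM) and Cd93 at 177 CPM, against 59.7 and 82.7 in the other two. C3 in that library was 196 CPM, between the 161 and 232 CPM of the others. The part of endothelial or other cells in the level of C3 was not tested.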
